A study of Mus musculus with 8 samples.

Results

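The 7 genes described here, Gpx1, Gpx4, Txnrd1, Txnrd2, Dio2, Sephs2 and Msrb1, encode selenoprotein enzymes. They were taken by gene name from tables of 54532 mouse genes, and each name matched 1 row. They belong to the 24 listed mouse selenoprotein genes, of which the other 17 served for comparison. Whole brains of male mice aged 3 months gave 4 libraries labelled wild type (WT) and 4 labelled Nsun5-KO (KO), and the protocol names 5 mice of a litter per genotype. Nsun5 methylates a cytosine of ribosomal RNA. For each library of ribosome footprints, RNA pieces protected by ribosomes from digestion, an mRNA library with the matching group and number was deposited. The labels give no strain, no allele of the knockout and no link from library to animal, so p-values here reflect library-to-library spread, which may be technical. In whole brain, fewer cells of a type and less RNA per cell cannot be told apart.

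Selenoproteins carry selenocysteine, which is encoded by UGA, a codon that elsewhere stops translation. A structure in the 3′ end of the mRNA, a binding protein (Secisbp2) and a dedicated elongation factor (Eefsec) let the ribosome insert selenocysteine at that UGA instead of ending the chain. In brain, these enzymes remove peroxides, keep thioredoxin reduced, repair oxidized methionine and activate thyroid hormone.

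Footprint libraries held 1201263 to 3493841 counts on genes in WT and 586392 to 1296876 in KO, of which 791699 to 1467410 and 232530 to 847044 fell on protein-coding genes. The mRNA libraries held 15642086 to 17829523 counts. Nsun5 mRNA was counted 91, 82, 103 and 109 times in the WT libraries and 102, 124, 83 and 110 times in those labelled KO. Its mRNA did not separate the groups (log2 fold change 0.12 ± 0.15, SE, n = 4 each, edgeR adjusted p = 0.820), so every direction below is between libraries as labelled. Marker sums of 3 lists did not overlap between the groups in mRNA (exact permutation p = 0.0286 each, the smallest possible, adjusted p = 0.171 over 36 sums), while 0 of the 8 genes of each passed edgeR. Summed mRNA of 8 mature oligodendrocyte markers ran from 6697 to 7238 counts scaled to library size (CPM) in WT and from 4391 to 5987 in KO, that of 8 cerebral cortex markers from 449.8 to 543.6 and from 573.2 to 677.3, and that of 8 neuron markers from 6753 to 6967 and from 7643 to 8169. Among the 36 sums, which include pathway lists and footprints, 3 more did not overlap. These were footprints of oligodendrocyte markers, footprints of thioredoxin genes and mRNA of genes of ferroptosis, a form of cell death, all given below. The remaining sums overlapped.

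Per length of transcript, Gpx4 had the highest mRNA level of the 7 genes and Txnrd2 the lowest. Levels are given in RPKM, reads per length of the gene and depth of the library, as the authors deposited them. Gpx4 is the enzyme that reduces lipid peroxides within membranes and so protects cells from ferroptosis. Its mRNA (ENSMUSG00000075706, mm10 chromosome 10, 80047166 to 80056439, plus strand) stood at 138, 141, 134 and 142 RPKM in the WT libraries, numbered 1 to 4, and at 138, 138, 130 and 144 in the KO libraries. The groups overlapped, and the highest and the lowest value were both in KO.

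Gpx1, the main cytosolic glutathione peroxidase, removes hydrogen peroxide. Its mRNA (ENSMUSG00000063856, chromosome 9, 108338903 to 108340343, plus strand) measured 46.9, 63.4, 57.7 and 62.0 RPKM in WT and 61.2, 62.8, 48.0 and 70.4 in KO. One library of each group, WT 1 and KO 3, lay well below the other 6. Summed mRNA of globins and other markers of red blood cells, which also hold Gpx1, overlapped between the groups. It ran from 64.5 to 155.7 CPM in WT and from 68.0 to 222.1 in KO. The part of red blood cells in the Gpx1 values was not tested.

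Dio2, the deiodinase that converts thyroxine to the active hormone T3, is known in brain from astrocytes and from tanycytes, the glia that line the third ventricle. Its mRNA (ENSMUSG00000007682, chromosome 12, 90724552 to 90738438, minus strand) measured 9.40, 10.3, 14.04 and 12.2 RPKM in WT and 12.5, 10.5, 18.0 and 14.7 in KO. The groups overlapped, KO library 3 was highest, and Dio2 varied most across the 8 libraries among the 7 mRNAs (coefficient of variation 22.1%, against 3.26% for Gpx4). Summed mRNA of 8 astrocyte markers was also highest in KO library 3 (4671 CPM), but so were the sums of neuron (8169) and cerebral cortex markers (677.3). The astrocyte sum ran from 3769 to 4418 CPM in WT and from 4092 to 4671 in KO. Summed mRNA of 8 tanycyte markers overlapped as well (253.4 to 329.3 CPM in WT, 215.4 to 318.4 in KO). The part of astrocytes and tanycytes in the Dio2 values was not tested.

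The other 4 mRNAs were moderate or low. Msrb1, which repairs oxidized methionine, ranged from 11.5 to 16.5 RPKM over the 8 libraries (ENSMUSG00000075705, chromosome 17, 24736642 to 24742778, plus strand). Sephs2, which makes the selenium donor for selenocysteine synthesis and is itself a selenoprotein, ranged from 10.8 to 13.2 RPKM (ENSMUSG00000049091, chromosome 7, 127271879 to 127274055, minus strand). The thioredoxin reductases pass electrons from NADPH to thioredoxin. Txnrd1, the cytosolic one, ranged from 8.39 to 10.7 RPKM (ENSMUSG00000020250, chromosome 10, 82833951 to 82897712, plus strand). Txnrd2, the mitochondrial one, ranged from 2.20 to 2.55 RPKM (ENSMUSG00000075704, chromosome 16, 18426384 to 18479073, plus strand). In the order of mRNA levels, Gpx4 lay above Gpx1, Gpx1 above Msrb1, Sephs2 above Txnrd1 and Txnrd1 above Txnrd2 in 8 of 8 libraries without overlap, while the ranges of Msrb1 and Dio2 overlapped, as did those of Dio2 and Sephs2.

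**Figure D1:**
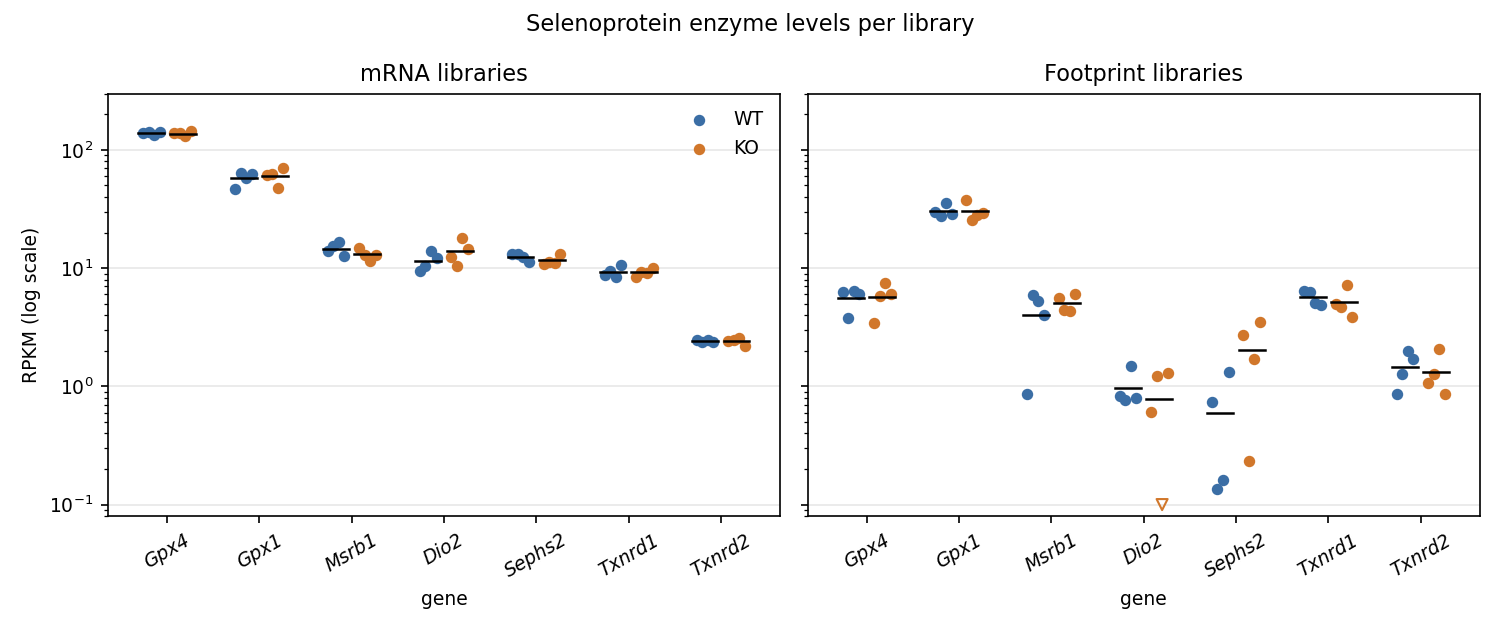
Level of each of the 7 mRNAs (left) and of footprints on them (right) in RPKM on a log axis, with 1 point per library, WT in blue, KO in orange and a bar at the group mean. The open triangle at the lower edge is KO library 3 with 0 Dio2 footprints. Gpx4 leads the mRNA panel at about 138 RPKM but stands with Txnrd1 and Msrb1 among the footprints, where Gpx1 leads in every library.

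Footprints ranked the genes differently. Gpx1 led, with 29.99, 27.6, 35.5 and 28.6 footprint RPKM in the 4 WT libraries and 37.6, 25.6, 28.05 and 29.5 in the KO libraries, above every other member in 8 of 8 libraries. Gpx4 footprints stood at 6.27, 3.79, 6.46 and 6.04 RPKM in WT and at 3.41, 5.85, 7.46 and 6.03 in KO. The most abundant of the 7 mRNAs therefore carried fewer footprints per length than Gpx1 and about as many as Txnrd1 (5.44 ± 1.11 RPKM, SD over 8 libraries) and Msrb1 (4.55 ± 1.67), whose ranges overlapped it. Txnrd2 (1.39 ± 0.483), Sephs2 (1.31 ± 1.25) and Dio2 (0.878 ± 0.469) were lowest, with overlapping ranges.

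These values rest on few reads. Over the 8 libraries there were 662 footprint counts on Gpx1, 588 on Txnrd1, 146 on Gpx4, 96 on Txnrd2, 88 on Msrb1, 87 on Dio2 and 29 on Sephs2, against 32082 mRNA counts on Gpx4 and 1431 to 11461 on each of the others. Dio2 had 9, 15, 25 and 13 footprint counts in WT and 3, 14, 0 and 8 in KO. Sephs2 had 3, 1, 1 and 8 in WT and 5, 1, 2 and 8 in KO.

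The footprint to mRNA ratio, footprint RPKM over mRNA RPKM of the same library name, parted the 7 genes. Gene length cancels in it, and since the authors scaled the 2 kinds of library separately, only the order of genes is read. The ratio of mean levels was 0.588 for Txnrd1, 0.574 for Txnrd2 and 0.513 for Gpx1, all above the median of 0.458 over 9454 protein-coding genes with at least 1 RPKM in both kinds of library. Msrb1 had 0.328. Sephs2 (0.108), Dio2 (0.0691) and Gpx4 (0.0410) lay below the 5th percentile of those genes, 0.143, with Gpx4 at percentile 0.317. Dio2 missed 1 footprint RPKM and is set against the 9454 genes without being one of them. Over the 11822 coding genes with at least 1 mRNA RPKM, whatever their footprints, Gpx4 stood at percentile 1.5, Dio2 at 2.61 and Sephs2 at 5.21. Library by library, against the same 9454 genes, Gpx4 stood between percentiles 0.381 and 6.03, whereas Sephs2 ran from 0.180 to 26.7 on its 1 to 8 counts.

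Gpx4 ratios were 0.0454, 0.0269, 0.0481 and 0.0424 in the 4 WT libraries and 0.0247, 0.0423, 0.0574 and 0.0419 in the KO libraries. Gpx1 ratios were 0.639, 0.435, 0.616 and 0.462 in WT and 0.614, 0.407, 0.584 and 0.419 in KO. The ratio of Gpx4 was lower than that of Gpx1 in 8 of 8 libraries, by 12.5 times from the mean levels. Dio2 and Sephs2 were below Gpx1 in 8 of 8 libraries too. The ranges of neighbours in the order of ratios overlapped. Dio2 was nevertheless above Gpx4 in 7 of 8 libraries, all but KO library 3, where Dio2 had 0 footprints, and above Sephs2 in 4 of 8.

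Relatives without selenocysteine were set beside the members. The ratio was 0.485 for Gpx7 and 0.561 for Gpx8, glutathione peroxidases of the secretory pathway on 27 and 39 footprint counts, and Gpx4 was below each of them in 7 of 8 libraries. Gpx1 was below Gpx7 in 3 of 8 libraries and below Gpx8 in 5 of 8. Msrb2, the mitochondrial relative of Msrb1, had 0.499, with Msrb1 lower in 6 of 8 libraries. Other methionine sulfoxide reductases without selenocysteine went the other way. Msrb3 had 0.178, on 26 footprint counts, and Msra 0.322, both below the 0.328 of Msrb1 from the mean levels. Sephs1, the relative of Sephs2, had 0.172 and was itself below the 10th percentile, 0.195, with Sephs2 lower in 7 of 8 libraries. Sephs1 missed 1 footprint RPKM (0.839), so it is not one of the 9454 genes behind that percentile. Among coding genes chosen on mRNA level alone it stood at percentile 12.4. Glutathione reductase (Gsr), which resembles the thioredoxin reductases in fold, had 0.621, against which Txnrd1 and Txnrd2 were lower in 5 of 8 libraries each.

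Near-identical copies and overlapping genes bear on these ratios. Gpx4-ps2, a transcribed processed pseudogene of Gpx4, held 5271 mRNA counts and 4 footprint counts, so reads of the 2 loci may have been split. Reads that fit both loci may also have been left out, to an unlike extent in the 2 kinds of library. How such reads were counted is not given in the sources used here, so the Gpx4 levels and ratio are uncertain. With both loci added, Gpx4 had 150 footprint and 37353 mRNA counts, and its ratio was 0.0358. That sum cannot bring back reads that were not counted, so it does not bound the uncertainty. Whether counting used the strand is not given in the sources used here, so reads of a gene that overlaps a member on the other strand cannot be told apart from its own. Footprints fall mainly on coding sequence while RPKM uses the whole gene length, and the share of each transcript that is coding was not tested as a part of the order.

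Among all 24 listed selenoprotein genes, 21 had at least 1 mRNA RPKM (Gpx2, Dio1 and Selenov did not). Of the 21, 5 were below the 5th percentile of the ratio. Besides Gpx4, Dio2 and Sephs2 these were Selenow (0.0650), a small redox protein with the highest mRNA level of the 21 at 660.6 RPKM, and Selenot (0.0779), a redox protein of the endoplasmic reticulum. Against genes chosen on mRNA level alone, 4 of 21 were below the 5th percentile.

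The place of selenocysteine in the protein went along with the ratio. In Txnrd1, Txnrd2, Txnrd3, Selenok, Selenos, Selenoi and Selenoo the UGA lies near the stop codon, as known from the proteins. In the other genes it lies farther upstream. The 7 genes of the first kind had ratios from 0.329 (Selenok) to 0.989 (Selenoo), with a median of 0.574, and 6 of 7 were above the median of coding genes. The 14 measured genes of the second kind had ratios from 0.0410 to 0.513, with a median of 0.192. Of these 14, 1 was above the median of coding genes, which was Gpx1, and 5 were below the 5th percentile. This grouping was made after the ratios were seen, so it is a description and was not tested.

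**Figure D2:**
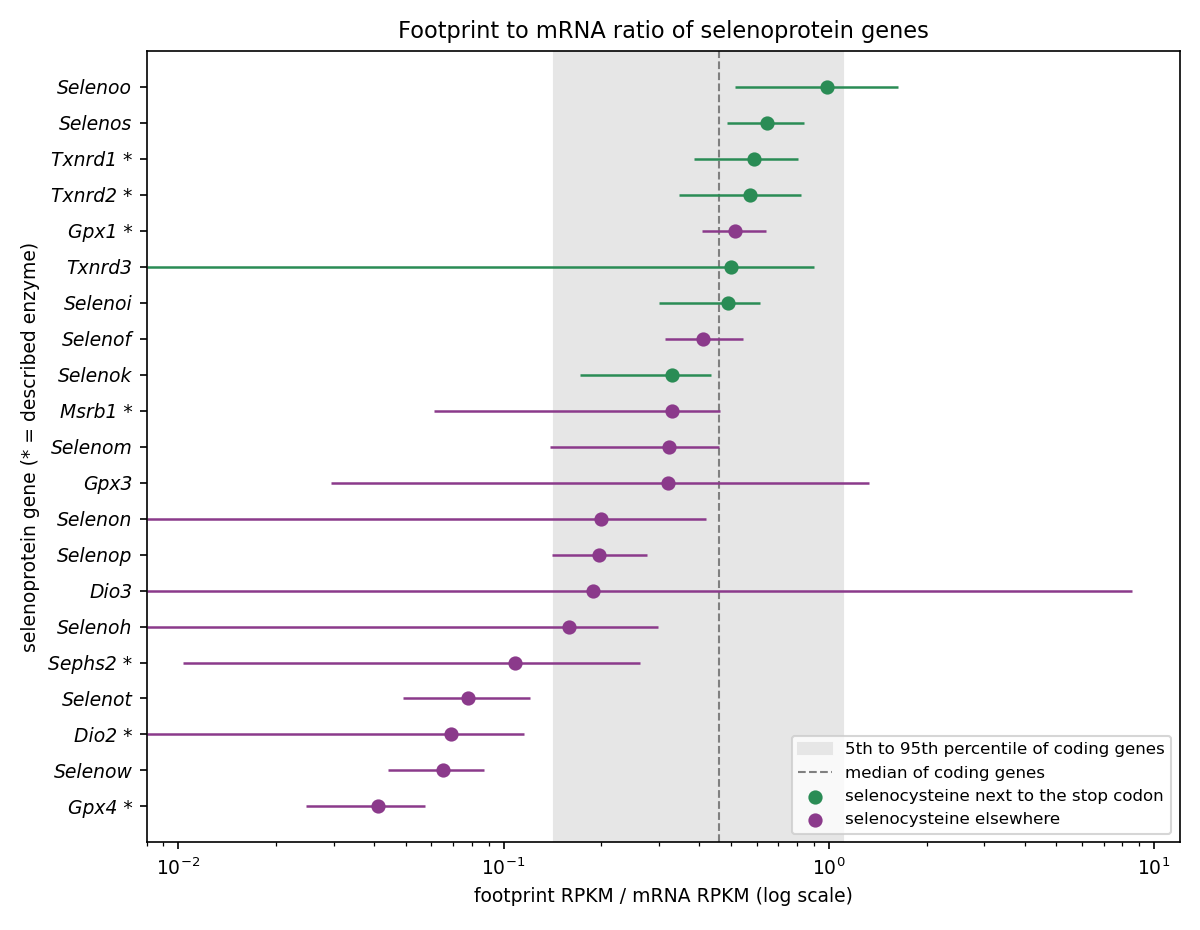
Footprint RPKM over mRNA RPKM on a log axis for the 21 selenoprotein genes with at least 1 mRNA RPKM, sorted by the ratio of mean levels (points), with lines from the lowest to the highest library (lines that meet the left edge reach lower or 0). Genes with selenocysteine near the stop codon (green) lie from 0.329 upwards. The others (purple) reach down to Gpx4 at 0.0410, left of the shaded range between the 5th and 95th percentiles of 9454 coding genes.

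In mRNA, no difference between libraries labelled WT and KO passed the test for any member. All 7 were tested among 13058 genes with a mean of at least 1 mRNA RPKM, and 0 of 7 passed an adjusted p of 0.05 by edgeR, as did 0% of all genes tested. At an unadjusted p under 0.05, 0 of 7 members stood against 10.5% of all genes (1377). The intervals bound the changes. For Gpx4 the log2 fold change, KO over WT, was −0.03 ± 0.06 (SE, 4 libraries a group, adjusted p = 0.894 by edgeR), and its 95% interval reached from −0.16 to 0.10. Txnrd1 (−0.03 ± 0.09), Txnrd2 (−0.03 ± 0.10) and Gpx1 (0.06 ± 0.12) had intervals within −0.25 and 0.34.

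The other 3 mRNAs had larger values, none passing. Dio2 stood at 0.26 ± 0.17 (adjusted p = 0.618, interval −0.11 to 0.62). The Dio2 value was 0.07 without WT libraries 1 and 2, the pair with the highest mRNA of hypothalamus markers, 0.17 without WT library 1 alone and 0.11 without KO library 3. With 1 library left out at a time it ran from 0.11 to 0.37. WT libraries 1 and 2 also had the lowest Dio2 mRNA in WT (9.40 and 10.3 RPKM), so leaving them out had to lower the value. Beside it, summed mRNA of 8 hypothalamus markers was 113.5, 66.4, 58.8 and 4.95 CPM in the 4 WT libraries and 3.72 to 9.45 in KO. WT library 3, at 58.8 CPM, had the highest Dio2 mRNA in WT (14.04 RPKM). The part of hypothalamus tissue in the Dio2 value was not tested. Msrb1 had −0.18 ± 0.11 (adjusted p = 0.618) and Sephs2 −0.13 ± 0.09 (adjusted p = 0.667). Without WT libraries 1 and 2 the Sephs2 value was −0.05, and with 1 library left out at a time it ran from −0.20 to −0.093.

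Dio2 is shown with its promoter because it was the most variable of the 7 mRNAs. Sephs2 is shown with its own because it had the largest estimated change relative to mRNA given below. That estimate did not pass, rests on few footprint counts and is not independent of the filter. Windows of 300 bases, from 250 before to 50 after a RefSeq transcript start on GRCm38.p6 (mm10), were on hand for 7 of 7 members, 12 windows in all. Both sequences read 5′ to 3′ along the gene's strand. Capitals mark the cAMP response element TGACGTCA and the TATA box TATAAA in Dio2 (minus strand, chr12:90738989-90739288), and the TATA box and a CCAAT box on the opposite strand, which reads ATTGG here, in Sephs2 (minus strand, chr7:127274010-127274309).
Dio2: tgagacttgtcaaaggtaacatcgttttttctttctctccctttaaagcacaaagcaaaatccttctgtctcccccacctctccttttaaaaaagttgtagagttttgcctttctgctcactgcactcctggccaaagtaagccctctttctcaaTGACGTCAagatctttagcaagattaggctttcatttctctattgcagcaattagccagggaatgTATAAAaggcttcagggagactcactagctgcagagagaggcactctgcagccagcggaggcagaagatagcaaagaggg
Sephs2: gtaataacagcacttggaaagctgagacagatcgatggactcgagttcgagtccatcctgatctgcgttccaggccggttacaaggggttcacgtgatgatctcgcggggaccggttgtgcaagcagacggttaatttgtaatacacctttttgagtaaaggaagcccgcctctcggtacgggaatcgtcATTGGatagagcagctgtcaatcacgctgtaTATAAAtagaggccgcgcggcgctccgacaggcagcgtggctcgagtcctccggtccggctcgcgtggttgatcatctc

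The cAMP response element began 95 bases before the Dio2 start and was found, on either strand, in 1.79% of 32851 windows of this length, and among the members in Dio2 alone. The TATA box TATAAA was in 13.6% of windows and in those of Dio2, Sephs2 and Msrb1, beginning 30 bases before the start in Dio2 and 29 in Sephs2. The core of the antioxidant response element, TGACNNNGC, was in 12.4% of windows and, among the members, in 1 window of Txnrd1. CCAAT was in 37.4% of windows and in 6 of the 12 member windows. The 4 motifs do not overlap in the letters marked. The RefSeq start of Dio2 lies upstream of the locus whose reads were counted, so its whole window is outside that locus. A match is a description of the letters and not a binding site.

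In footprints no difference passed either, and the intervals were wide. Of the 7 genes, 3 passed the filter on low counts (Gpx1, Gpx4 and Txnrd1), and 0 of 3 passed edgeR among 8476 genes, as did 0% of all, with 0 of 3 at an unadjusted p under 0.05 against 5.52% of all genes (468). The log2 fold change was −0.03 ± 0.18 for Gpx1 (SE, n = 4 each, edgeR adjusted p = 0.993, interval −0.42 to 0.36), −0.0037 ± 0.37 for Gpx4 (0.997, interval −0.80 to 0.79) and −0.17 ± 0.21 for Txnrd1 (0.947, interval −0.63 to 0.29). Without the filter, which was an alternative setting, the 4 others had −0.27 (Txnrd2), −0.19 (Dio2), 0.25 (Msrb1) and 1.66 (Sephs2), and none of the 4 passed (adjusted p from 0.783 to 0.930). Counts on Txnrd2, Dio2, Msrb1 and Sephs2 were low, and what size of change in their footprints could be detected was not tested.

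Translational efficiency, the footprint change relative to the mRNA change, was tested in 6 of the 7 genes among 9673, since Dio2 missed 1 footprint RPKM. By edgeR 0 of 6 passed, as did 0% of all genes. At an unadjusted p under 0.05 there was 1 of 6 against 10.9% of all genes (1052). That member was Sephs2, at 1.75 ± 0.73 on the log2 scale (adjusted p = 0.388 by edgeR, interval 0.24 to 3.26). Sephs2 ratios were 0.0570, 0.0103, 0.0128 and 0.116 in WT and 0.251, 0.0204, 0.152 and 0.263 in KO. Sephs2 reached the minimum mean of 1 footprint RPKM through KO alone (0.590 in WT, 2.02 in KO), so its direction in this test is not independent of the filter. The ratios overlapped, with KO library 2 inside the WT range, and they rest on 13 footprint counts in WT and 16 in KO. Gpx4 (0.05 ± 0.26), Gpx1 (−0.09 ± 0.22), Txnrd1 (−0.15 ± 0.22), Txnrd2 (−0.24 ± 0.41) and Msrb1 (0.42 ± 0.45) had intervals that include 0. Hypothalamus markers, higher in WT than in KO mRNA on average, ran the other way in footprints (3.12 to 56.3 CPM in WT and 56.3 to 100.9 in KO), and the part of such tissue differences in the efficiency values was not tested.

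**Figure D3:**
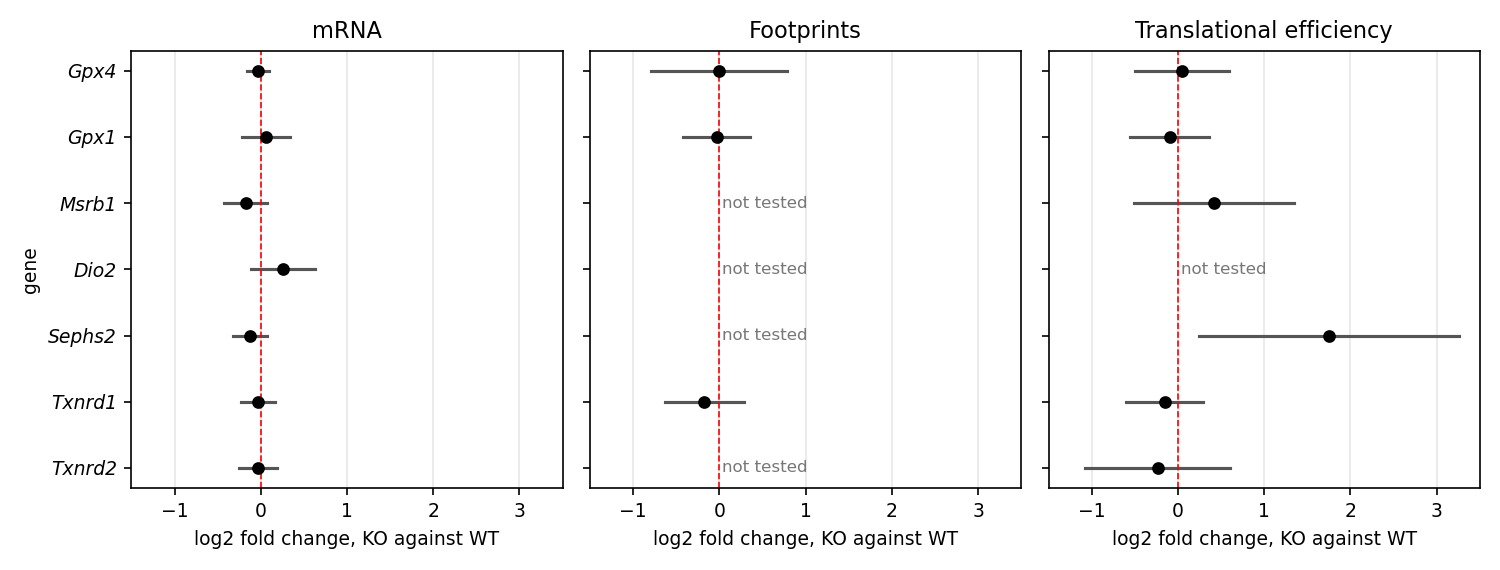
Log2 fold change between KO and WT libraries (points) with its 95% interval (lines) for mRNA (7 genes), footprints (3 genes) and translational efficiency (6 genes), with the others marked as not tested. Every mRNA and footprint interval includes 0, intervals are narrowest for mRNA, and the Sephs2 interval in the right panel runs from 0.24 to 3.26 without passing after adjustment over 9673 genes.

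No gene of the rest of the selenoprotein system passed either. Of the other 17 selenoprotein genes, 14 were tested in mRNA and 0 passed in either direction, with 3 above and 11 below 0 and a median log2 fold change of −0.09 against −0.01 over all genes. The lowest p was that of Gpx3, a secreted glutathione peroxidase (−1.19 ± 0.35, edgeR adjusted p = 0.337), whose translational efficiency ran the other way (2.50 ± 0.72, edgeR adjusted p = 0.214). Beside it, mRNA of 8 choroid plexus and ependyma markers was below 0 in 8 of 8 (median −0.98, 0 passing), with sums of 326.4 to 1157 CPM in WT and 59.99 to 1185 in KO, and its part in the Gpx3 values was not tested. Next came Selenow (−0.14 ± 0.07), Selenos (−0.13 ± 0.08) and Txnrd3 (−0.25 ± 0.16). In footprints 0 of 9 passed (2 above 0, median −0.19).

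Genes of selenocysteine synthesis and UGA recoding gave 0 of 13 passing in mRNA (5 above and 8 below 0, median −0.04) and 0 of 9 in footprints (4 above, 5 below, median −0.03). Sepsecs, which makes selenocysteine on its tRNA, had the lowest mRNA p (−0.21 ± 0.10, edgeR adjusted p = 0.486), and Pstk, the kinase of the step before, the lowest footprint p (−0.74 ± 0.48, edgeR adjusted p = 0.881). In a list of selenium uptake, binding and recycling genes 0 of 4 passed in mRNA. First were Selenbp1, a selenium-binding protein (−0.46 ± 0.17), and Scly, which frees selenium from selenocysteine (−0.28 ± 0.13). The relatives without selenocysteine gave 0 of 7 (median −0.02). Thyroid hormone genes, the field of Dio2, gave 0 of 9 in mRNA (4 above and 5 below 0, median −0.01), led by Klf9, a hormone-responsive transcription factor (0.34 ± 0.12, edgeR adjusted p = 0.406).

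For the mRNA pattern over the 8 libraries, the genes most like each member were listed by Pearson's r of log2 CPM among 11682 genes, as a description. They were Pwwp2b, Klhdc4 and Rasgef1b for Gpx1 (0.991, 0.976 and 0.976), Nop14, Suclg1 and Lhfpl4 for Gpx4 (0.955, 0.953 and 0.947), and Faxc, Cic and Prrc2b for Dio2 (0.962, 0.953 and 0.953). Sephs2 was most like Mmp14 (0.962), Txnrd1 most like Mapk12 (0.940), Txnrd2 most like Lysmd4 (0.930) and Msrb1 most like Ctnnal1 (0.928). The points share the 8 libraries, and no member was among the 3 genes most like another member. These r values are the highest picked from 11682 genes over 8 libraries, and what unrelated genes would give was not tested. Between members, r ran from −0.794 (Gpx4 and Txnrd2) to 0.736 (Gpx1 and Gpx4).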

How the data were processed

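The deposited counts are raw whole numbers per gene, 1 column per library, with a different total in each, for 8 footprint and 8 mRNA libraries. The RPKM values were made by the authors and deposited in 2 tables. Each RPKM column fits 1 library size, from 0.687 to 1.54 times the footprint total. TopHat2 and mm10 are named in the submitters' processing notes. The counting program, annotation release, strand setting and filters are not given in the sources used here.

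Counts were fitted with edgeR 4.0.16 (R 4.3.3; TMM, quasi-likelihood test, KO against WT, Benjamini-Hochberg adjusted p under 0.05 over all genes tested). Footprint genes were kept by filterByExpr (minimum count 10), mRNA genes at a mean of at least 1 RPKM, and for translational efficiency, the interaction of genotype and library kind, at 1 RPKM in both kinds. The SE is the log2 fold change over the square root of F. Fits were tested on simulated data. Alternatives were DESeq2 1.42.0, other scalings and filters, limma 3.58.1 on log2(RPKM + 0.1 or 1), thinned footprints, a replicate block and leaving out libraries. For sums over a list, an exact permutation test (two-sided, 70 splits) was used, whose smallest p is 0.0286. Same-number WT and KO libraries did not deviate together (correlations −0.247 to 0.0749 in footprints, −0.238 to 0.0310 in mRNA). The members and lists were chosen with earlier results of these data known. All members were named, with up to 4 genes of lowest p per list. One overlapping locus is not reported here.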

Additional observations from a re-analysis of the deposited data

Results flagged for a closer look

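In groups of 4 libraries, a value whose gap to its nearest neighbour exceeded Dixon's 95% critical value was looked at again, which chance gives in about 5% of groups. Of the 42 groups of mRNA level, footprint level and ratio of the 7 genes, 2 had such a value. WT library 2 held fewer Gpx4 footprints (3.79 RPKM) than the other 3 WT libraries (6.04 to 6.46), from 22 counts. WT library 3 held more Dio2 footprints (1.496 RPKM) than the other 3 (0.765 to 0.836), from 25 counts.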

How the results depend on the processing

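No member passed an adjusted p of 0.05 in mRNA, footprints or translational efficiency under any alternative run. Over all genes tested, edgeR called 0 in each comparison. In footprints DESeq2 called 4, coding genes alone 3, no filter 86 and thinned footprints 4. In mRNA DESeq2 called 87 and no filter 24. In translational efficiency DESeq2 called 150, no filter 2 and the replicate block 1. Leaving out 1 library gave 0 to 0, 0 to 2 and 0 to 4 calls in this order. Signs turned only for changes near 0. The Gpx4 footprint change was 0.012 with RLE scaling, 0.013 by DESeq2, 0.0049 with coding genes alone and 0.037 with the replicate block, and its translational efficiency change was −0.0030 without a filter and −0.14 without WT libraries 1 and 2, where that of Txnrd1 was 0.048. With 1 library left out, footprint changes ran from −0.14 to 0.063 for Gpx1 and from −0.16 to 0.17 for Gpx4. The mRNA changes ran from −0.024 to 0.16 for Gpx1, −0.053 to 0.0023 for Gpx4, −0.081 to 0.042 for Txnrd1 and −0.055 to 0.0090 for Txnrd2. Translational efficiency changes ran from −0.21 to 0.037 for Gpx1 and from −0.14 to 0.19 for Gpx4. The cause was not tested. For Sephs2 the translational efficiency change ran from 1.22 without KO library 4 to 2.74 without WT library 4. All these runs kept the genes chosen on all 8 libraries. Sephs2 reached that filter through KO alone (0.590 footprint RPKM in WT, 2.02 in KO), so its range is not independent of the filter. The percentile of the ratio stayed between 0.253 and 0.348 for Gpx4, 0.625 and 1.38 for Dio2, and 1.30 and 3.65 for Sephs2 with 1 library left out. Ranking over genes chosen on mRNA level alone and adding the pseudogene to Gpx4 were chosen after seeing the data. Numbers shared by WT and KO libraries are not stated to pair them. Footprint counts per library, 0 to 25 for Dio2 and 1 to 8 for Sephs2, limit the footprint results.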

Other observations

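Summed footprints of 16 genes around the thioredoxin system (thioredoxins and relatives, peroxiredoxins, sulfiredoxin, 4 glutaredoxins and the thioredoxin inhibitor Txnip) ran from 573.9 to 673.6 CPM in WT and from 506.3 to 567.9 in KO without overlap (exact permutation p = 0.0286, the smallest 4 against 4 libraries can give, adjusted p = 0.171 over 36 sums). Beside it, summed footprints of 8 mature oligodendrocyte markers ran from 2167 to 2631 CPM in WT and from 1466 to 1914 in KO, also without overlap and with the same p, and their part in the first sum was not tested. By edgeR 0 of 16 passed in footprints or mRNA, with 8 above and 8 below 0 in footprints. The lowest footprint p values were those of Prdx3, the mitochondrial peroxiredoxin (−0.61 ± 0.21, edgeR adjusted p = 0.863), and Txndc17, a thioredoxin-related protein (−1.09 ± 0.38). The mRNA sum of the same genes overlapped (1310 to 1371 CPM in WT, 1242 to 1360 in KO).

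Genes of ferroptosis, the form of cell death that Gpx4 restrains, had a lower mRNA sum in KO (2375 to 2614 CPM in WT, 2111 to 2300 in KO, exact permutation p = 0.0286, adjusted p = 0.171). Most of that sum is Fth1, the ferritin heavy chain, with a log2 fold change of −0.22 ± 0.06 in mRNA (edgeR adjusted p = 0.337) and 0.32 ± 0.18 in footprints (0.881). In mRNA 0 of 10 passed, with 4 above and 6 below 0. The ferritin light chain Ftl1 had a footprint to mRNA ratio of 0.0114, lower than that of Gpx4. It rests on 18 footprint counts, 0 to 6 per library, and its mean of 0.798 footprint RPKM missed the minimum of 1. Near-identical copies were searched for the members alone, so whether Ftl1 reads were split or left out was not tested. Among 19 glutathione and Nrf2 target genes 0 passed in mRNA (5 above and 14 below 0, median −0.05), with Gstm5, a glutathione transferase, at −0.16 ± 0.07.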
